A study of Mus musculus with 3 samples.

Results

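Setd1a occupancy was examined at 10 genes of the Notch pathway that are used in neural stem cells. These are the receptors *Notch1*, *Notch2* and *Notch3*, the ligands *Dll1* and *Jag1*, and the DNA-binding factor *Rbpj*. The others, *Hes1*, *Hes5*, *Hes6* and *Hey1*, are grouped here as targets. The genes were listed by name and looked up among the 22028 protein-coding genes of GENCODE M21, an annotation of the mouse genome build GRCm38 (mm10), and all 10 were found. For each gene, every Setd1a interval within 3000 bp of any of its transcription start sites (TSSs) or overlapping its gene body was taken, and where there was none, the distance to the nearest interval. Of the 6969 intervals in the list, 14 met this rule, at 7 of the 10 genes.

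The intervals come from CUT & RUN, in which an antibody on permeabilised cells brings a nuclease to the chromatin that holds its target, so that the DNA beside it is cut out and sequenced. Setd1a is a methyltransferase that places mono-, di- and trimethylation on lysine 4 of histone H3. The trimethylated form is a mark of active promoters. The cells were adult neural stem cells (NSCs) from the dentate gyrus, labelled neural progenitor cells of WT genotype, held in quiescence by BMP4 and FGF2 and collected on day 5. The Setd1a antibody was used on 2 independent cultures and IgG, the control, on 1. All the libraries share a background: the growth protocol derives the cells from mice that carry Hopx-CreERT2, floxed *Setd1a* alleles and an H2B-GFP reporter, and their labelled genotype is WT, with no deletion named. The authors kept the intervals found in both replicates as 1 list, which gives a start and an end for each interval and no height or score. No spread between the cultures could therefore be measured, no Setd1a-deleted cells are in the comparison, the depth is unknown, and every count below is a description of the combined list with no test.

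In Notch signalling a ligand on one cell binds a receptor on its neighbour, proteases then cut the receptor, and its intracellular domain enters the nucleus. There it joins the factor RBPJ on DNA and brings in coactivators, whereas RBPJ without it is bound by corepressors. The direct targets include *Hes1*, *Hes5* and *Hey1*, which encode basic helix-loop-helix repressors that hold back proneural genes. *Hes6* is grouped with them as a gene of the Hes family. Signalling through this pathway is known for keeping adult NSCs of the dentate gyrus undifferentiated. The authors describe it as needed for both the quiescence and the proliferation of NSCs.

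Setd1a intervals lay within 3000 bp of a TSS at *Notch1*, *Notch2*, *Jag1*, *Rbpj*, *Hes1*, *Hes6* and *Hey1*, and not at *Notch3*, *Dll1* or *Hes5*. That is 7 of 10 genes (70%), where 5049 of 22028 protein-coding genes (22.9%) had such an interval. The same 7 genes had an interval overlapping the gene body, beside 5052 of all protein-coding genes (22.9%). All 10 genes have a CpG-rich promoter, with an observed to expected CpG ratio of at least 0.6 in the 250 bp before to 50 bp after the TSS, and among the 10110 protein-coding genes with such a promoter 39.7% had an interval within 3000 bp. Among the 11756 genes with fewer CpGs the share was 8.61%. The count of 7 therefore stands beside a higher background when promoters of the same CpG class are taken. This division was added after the data were seen.

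The intervals at the 7 genes differed in number and in place. *Notch1*, *Hes1*, *Hes6* and *Jag1* each had 2 intervals within 3000 bp of a TSS. Of all protein-coding genes, 472 (2.14%) had 2 or more. The second interval of *Hes6*, of 234 bp, is lost when intervals under 300 bp are left out. It is joined to the first when intervals within 1000 bp of each other are merged. At *Notch1* and *Jag1* the second interval lay 2138 and 1320 bp from a TSS, which is outside a window of 1000 bp. The share of 2.14% and the median over protein-coding genes below were not split by CpG class. An interval lay over an annotated TSS at *Notch1*, *Rbpj*, *Hey1* and *Jag1*. Over the 10 genes the distance from a TSS to the nearest interval had a median of 25.5 bp, and over 21951 protein-coding genes with an interval on their chromosome it was 55987 bp. No TSS of another gene lay within 3000 bp of any of the 14 intervals, and none of them overlapped another gene.

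**Figure D1:**
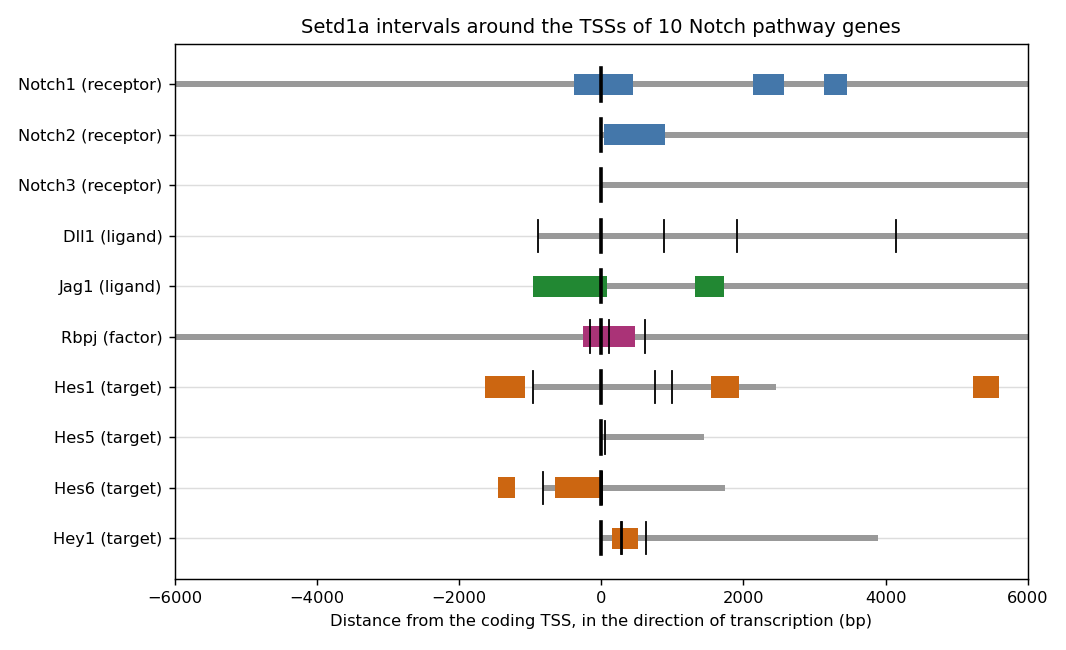
Setd1a intervals (coloured boxes) around the coding TSS (thick black line at 0) of the 10 genes, with distance in bp in the direction of transcription on the x axis, the gene body in grey and other annotated TSSs as thin black lines. Boxes lie over or next to the TSS of *Notch1*, *Notch2*, *Jag1*, *Rbpj*, *Hes6* and *Hey1*, and on either side of it at *Hes1*, where the box farthest right is a neighbouring interval outside the 3000 bp rule.

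The sequences that follow show the element most closely tied to the pathway, the RBPJ core TGGGAA, at *Hes1* and *Hes5*, target genes whose promoter holds its longer form GTGGGAA. They were read from the RefSeq sequence of GRCm38 by coordinates and are written 5′ to 3′ in the direction of transcription, with the strand in parentheses. Capitals mark the core on either strand, which reads TTCCCA where it lies on the opposite one. The first ends at the base before the *Hes1* coding TSS and holds a pair of cores in the same orientation, at -80 and -66, where positions are counted from the coding TSS and are negative before it. The *Hes5* stretch holds cores at -298, -226 and -82. Neither stretch lay in a Setd1a interval.
Hes1, chr16:30065220-30065339 (+): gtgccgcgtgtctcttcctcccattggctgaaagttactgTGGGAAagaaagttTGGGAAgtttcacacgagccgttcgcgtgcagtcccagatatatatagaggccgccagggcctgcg
Hes5, chr4:154960623-154960862 (+): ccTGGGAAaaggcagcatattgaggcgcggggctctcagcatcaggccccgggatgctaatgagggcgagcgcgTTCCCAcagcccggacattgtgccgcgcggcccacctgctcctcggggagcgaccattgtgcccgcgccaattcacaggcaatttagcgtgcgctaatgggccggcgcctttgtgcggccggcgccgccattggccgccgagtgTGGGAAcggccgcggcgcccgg

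The next 3 stretches are shown because they hold the RBPJ core within a Setd1a interval, at a receptor, the factor itself and a ligand. Capitals again mark the core on either strand. The *Notch1* stretch holds it at -387 in its longer form, the *Rbpj* stretch at -171, and the *Jag1* stretch at -726 and -651, and every base printed lies inside the interval over the gene's TSS.
Notch1, chr2:26504113-26504212 (-): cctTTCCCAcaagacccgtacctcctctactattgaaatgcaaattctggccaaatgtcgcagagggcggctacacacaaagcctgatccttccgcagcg
Rbpj, chr5:53590111-53590213 (+): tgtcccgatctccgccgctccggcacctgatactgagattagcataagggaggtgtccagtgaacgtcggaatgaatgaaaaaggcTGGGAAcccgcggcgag
Jag1, chr2:137117265-137117414 (-): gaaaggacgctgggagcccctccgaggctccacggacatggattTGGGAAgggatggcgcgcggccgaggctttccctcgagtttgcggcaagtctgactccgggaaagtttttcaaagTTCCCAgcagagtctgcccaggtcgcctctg

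Among the receptors, which are cut after they bind ligand and release the domain that acts in the nucleus, *Notch1* and *Notch2* had intervals and *Notch3* had none. *Notch1* lies on the minus strand at chr2:26457903-26516663 (58.8 kb) and had 4 intervals in its gene body. The interval at chr2:26503377-26504213 (837 bp) lay over the coding TSS at 26503822 and ran from -391 to +445, over exon 1 and part of intron 1. The other 3 lay in intron 2. They were chr2:26501250-26501684 (435 bp), whose nearer edge was 2138 bp from the TSS, chr2:26500371-26500686 (316 bp) at 3136 bp, and chr2:26487283-26488298 (1016 bp) at 15524 bp. The 3000 bp window thus fell between the intervals at 2138 and 3136 bp. A second coding TSS of *Notch1*, at 26516663, was 12450 bp from the nearest interval.

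Only 25 of 22028 protein-coding genes (0.113%) had 4 or more intervals in the gene body. Among 3357 genes within 1.5-fold of the length of *Notch1* there were 3, namely *Notch1*, *Ptch1* and *Tspan15*. The *Notch1* intervals at 2138 and 3136 bp are joined when intervals within 1000 bp of each other are merged. Neither count was taken again after merging. Beyond the gene body, intervals of 584 bp at chr2:26533418-26534001 and 545 bp at chr2:26535490-26536034 lay upstream of *Notch1*, which held the nearest TSS. *Notch1* thus had intervals over, within and upstream of the gene, of which 1 was over its coding TSS.

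*Notch2*, at chr3:98013527-98150361 on the plus strand (136.8 kb), had 2 intervals. The first, chr3:98013582-98014431 (850 bp), began 44 bp after the coding TSS and covered 190 bp of exon 1 and 660 bp of intron 1. The other, chr3:98043224-98043522 (299 bp), lay 29686 bp into the gene, also in intron 1. The TSS nearest its midpoint was that of *Gm42819*, and it is lost when intervals under 300 bp are left out. Unlike the interval at *Notch1*, the promoter interval of *Notch2* did not reach upstream of the TSS. Of 1801 genes of similar length, 8.61% had 2 or more intervals in the body. *Notch3*, at chr17:32120820-32166852 on the minus strand (46.0 kb), had no interval in its body or window. Its nearest was chr17:32080775-32081101 (327 bp), 52.7 kb from the nearest of its 3 TSSs. The coding TSSs of *Notch3*, at 32137825 and 32166852, were 56724 and 85751 bp from it.

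**Figure D2:**
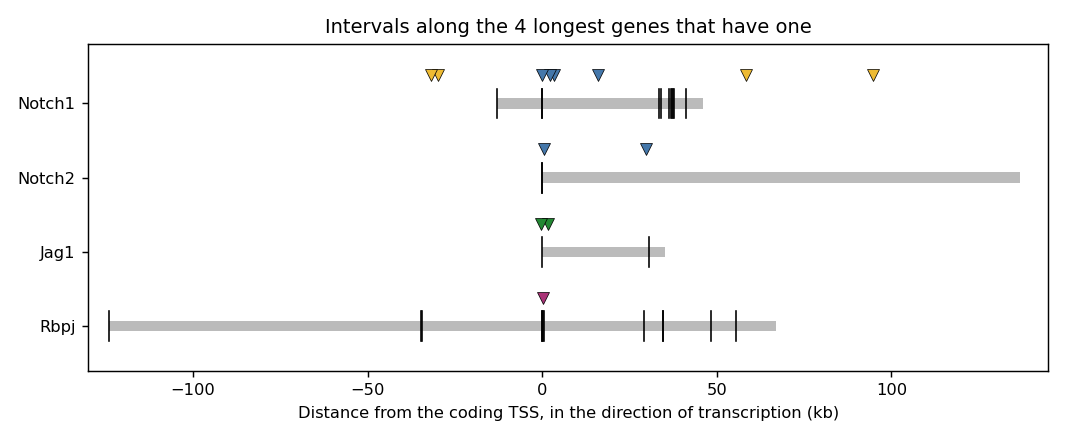
Positions of Setd1a intervals along the 4 longest genes that have one, as distance from the coding TSS in kb in the direction of transcription. Grey bars are gene bodies, black lines annotated TSSs, coloured triangles the midpoints of intervals at the gene and yellow triangles other intervals within 50 kb of the gene; *Notch1* has 4 coloured triangles, *Notch2* and *Jag1* have 2 each and *Rbpj* has 1.

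Of the ligands, which are presented on the neighbouring cell, *Jag1* had intervals and *Dll1* had none. *Jag1* lies at chr2:137081456-137116644 on the minus strand (35.2 kb). Its promoter interval, chr2:137116564-137117601, was the widest of the 14 at 1038 bp, wider than 93.2% of all intervals, and extended from -957 to +80. It lay mostly upstream, with 957 bp outside the gene and 81 bp in exon 1. A second interval of 406 bp, chr2:137114919-137115324, lay in intron 2, 1320 bp after the TSS. *Dll1*, at chr17:15367354-15376872 on the minus strand (9.5 kb), was the gene farthest from an interval. The nearest, of 482 bp at chr17:15564253-15564734, was 187.4 kb upstream.

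*Rbpj*, the gene of the factor that binds DNA for all the receptors, had a single interval. The gene spans 191.2 kb at chr5:53466152-53657362 on the plus strand and has 12 annotated TSSs, of which 6 start coding transcripts. The interval, chr5:53590111-53590849 (739 bp), covered 3 of these coding TSSs, at 53590214, 53590368 and 53590471, and ended at -132 of a further one at 53590981. The coding TSSs farther upstream, at 53466152 and 53555834, were 123959 and 34277 bp from it. The interval was thus at the central cluster of start sites, and no other lay within 50 kb of the gene.

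Of the genes grouped as targets, *Hes1*, *Hes6* and *Hey1* had intervals and *Hes5* had none. *Hes1*, at chr16:30064384-30067796 on the plus strand (3.4 kb), encodes a repressor whose own promoter it can bind. Its 2 intervals lay on either side of the coding TSS at 30065340 and did not cover it. The interval upstream, chr16:30063699-30064263 (565 bp), ran from -1641 to -1077 and ended 121 bp before the TSS of a noncoding transcript of the gene. The other, chr16:30066878-30067275 (398 bp), ran from +1538 to +1935 and lay wholly in the coding sequence of exon 4. Beyond the rule, intervals of 431 bp at chr16:30056966-30057396 and of 365 bp at chr16:30070577-30070941 had the TSSs of *Hes1* as their nearest.

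*Hes6*, whose product is related to HES1 but is known to oppose it, lies at chr1:91411483-91414038 on the minus strand (2.6 kb). Its interval chr1:91413229-91413879 (651 bp) began 7 bp before the coding TSS and ran upstream, from -7 to -657. A second interval, chr1:91414443-91414676, lay from -1221 to -1454. At 234 bp it was the narrowest of the 14 and 1 bp wider than the narrowest interval of the list, which was 233 bp. *Hey1*, at chr3:8663359-8667256 on the minus strand (3.9 kb), had 1 interval of 373 bp, chr3:8666733-8667105. It lay downstream of the coding TSS, from +151 to +523, with 324 bp in exon 1, and covered the TSSs of 2 transcripts with a retained intron.

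*Hes5*, at chr4:154960923-154962371 on the plus strand (1.4 kb), encodes a further repressor of this family. It had no interval closer than 36.9 kb upstream, where one of 242 bp lay at chr4:154923820-154924061, nearer to the TSS of *Tnfrsf14*. Among 16902 protein-coding genes without an interval within 3000 bp the median distance was 103.231 kb, and *Hes5*, *Notch3* and *Dll1* stood at the 25.8, 33.5 and 63.4 percentiles. *Hes5* and *Notch3* were therefore nearer to an interval than most genes without one, and *Dll1* was farther. Absence from the list says only that no interval was kept in both replicates, and at unknown depth it does not show that Setd1a was absent.

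The sequence of the 14 intervals, which together cover 8.157 kb, was compared with that of the other intervals. They fell into groups of high and low CpG content. In 9 of them the observed to expected CpG ratio was between 0.553 and 0.989, with a GC content of 55.4% to 75.8%. In the other 5 the ratio was between 0.186 and 0.268, and the GC content was 45.2% to 59.2%. The interval with the highest ratio was that of *Rbpj*, with 85 CpGs. The 5 low intervals were the 3 in intron 2 of *Notch1*, the deeper one in intron 1 of *Notch2* and the one farther upstream of *Hes6*.

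These bounds were drawn from the 14 intervals after their values were seen. Of all 6952 intervals on assembled chromosomes, 57.6% lay at or above the lower bound of the high group, 26.9% at or below the upper bound of the low group and 15.5% between them. Among the 4891 intervals within 3000 bp of a TSS 9.67% were in the low range, and among the 2061 farther away 67.9% were. At *Notch1* and *Hes6* a low interval also lay within 3000 bp of a TSS, at 2138 bp from the coding TSS and at -1221. The low intervals were mostly narrower, with a median width of 316 bp beside 651 bp in the high group, and the exception was the interval of 1016 bp in *Notch1*.

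**Figure D3:**
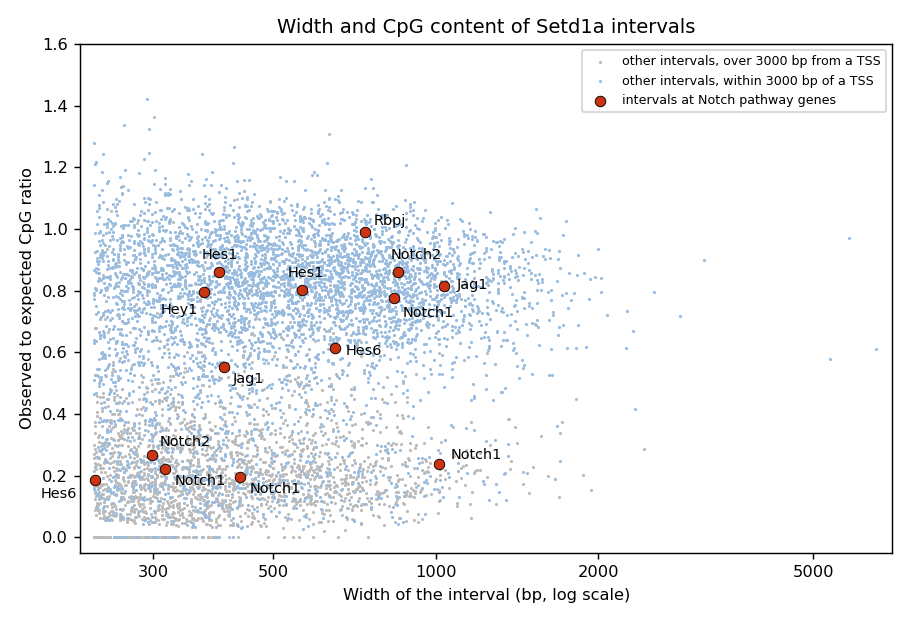
Width in bp (log scale) against the observed to expected CpG ratio of all intervals on assembled chromosomes, with those within 3000 bp of a TSS in blue, those farther away in grey and the 14 at the Notch pathway genes in red. Red points lie either at 0.553 and above or at 0.268 and below.

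The middle 150 bp of an interval from each group are shown with each CpG in capitals, to let the difference be seen. The first is from the upstream interval of *Hes1* and holds 18 CpGs, and the second, from the 1016 bp interval in *Notch1*, holds 6.
Hes1, chr16:30063906-30064055 (+): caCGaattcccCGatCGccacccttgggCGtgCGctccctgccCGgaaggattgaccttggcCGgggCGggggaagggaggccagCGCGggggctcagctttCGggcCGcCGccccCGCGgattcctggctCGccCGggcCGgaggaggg
Notch1, chr2:26487716-26487865 (-): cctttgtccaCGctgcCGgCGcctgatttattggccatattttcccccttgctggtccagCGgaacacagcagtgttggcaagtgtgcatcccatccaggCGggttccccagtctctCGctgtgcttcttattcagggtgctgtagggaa

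The RBPJ core TGGGAA was then searched on both strands from 250 bp before to 50 bp after the coding TSS. It was present at 5 of the 10 genes (*Notch3*, *Rbpj*, *Hes1*, *Hes5* and *Hey1*) and at 24.9% of 21866 protein-coding promoters. The longer form GTGGGAA, which contains the core, was present at *Hes1*, *Hes5* and *Hey1* and at 6.19% of all promoters. The 3 genes with the longer form are targets of the pathway, and 2 of them had a Setd1a interval. *Notch3* and *Hes5* held the core and had no interval, so the core and an interval did not go together gene by gene. In the wider stretch from 1000 bp before to 200 bp after the TSS, 9 genes held the core, as did 69.1% of all promoters, so this count is little above that of promoters in general.

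In that wider stretch there were 18 matches of the core, and 5 of them lay inside a Setd1a interval, at *Notch1*, *Rbpj* and *Jag1*. Further cores, at -817 and -738 of *Notch1* and at -834 and -367 of *Rbpj*, lay outside any interval. At *Hes1* the pair of cores was 997 and 1011 bp from the nearest interval edge, between the intervals on either side. At *Hey1* the core at -175 was 321 bp from the interval. That interval held 2 cores of its own, at +219 and +236, the latter in the longer form. Over the whole of the 14 intervals there were 15 matches of the core, in 10 intervals. This is 1.84 per kb, beside 0.917 per kb over all intervals, 0.816 per kb over those within 3000 bp of a TSS and 1.22 per kb over those farther away. The number of matches at the 10 genes is small and the difference in density has no test.

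**Figure D4:**
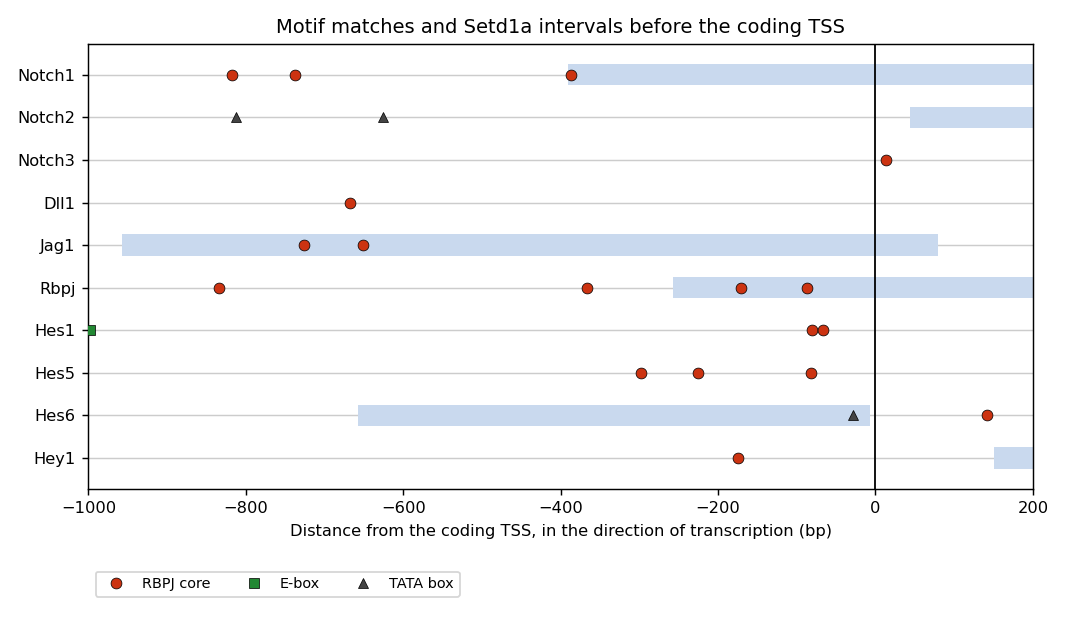
Matches of the RBPJ core, the E-box and the TATA box (symbols, either strand) from 1000 bp before to 200 bp after the coding TSS of each gene, with Setd1a intervals as blue bars and distance in bp on the x axis. At *Jag1* the cores lie on the bars, and at *Notch1* and *Rbpj* some lie on them and some outside. At *Hes1*, *Hes5* and *Hey1* the cores before the TSS lie outside the bars.

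Other elements gave a different picture. The E-box CACGTG, which is the same on both strands and to which Hey proteins can bind, was at none of the 10 promoters in the 300 bp window, beside 7.64% of all promoters. In the wider stretch it was found once, at -998 of *Hes1*, 79 bp from the edge of the upstream interval. A further E-box lay in the exon 4 interval of *Hes1* at +1617. The N-box CACNAG, a site of Hes proteins, was at 6 of 10 promoters and 41.9% of all. The GC box GGGCGG was at 6 of 10 and 44.9% of all. It was present in the central 300 bp of the interval nearest the TSS at all 7 genes that had one. Of all intervals 44.7% held it there, but that set includes those farther than 3000 bp from a TSS. Per kb the GC box was no denser in the 14 intervals (3.56) than in all intervals within 3000 bp of a TSS (3.81), and it was sparse in those farther away (0.426).

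The TATA box TATAAA was at 1 of the 10 promoters and 12.6% of all, namely *Hes6*, at -28. Only these exact letters were searched on either strand, so other forms of the TATA box were not counted. Of the stretches that follow, the first is that of *Hes6*, with the TATA box in capitals, of which 114 of 120 bp lie inside the interval that ends 7 bp before the TSS. The other is that of *Hes1* with the E-box in capitals, of which 21 of 120 bp lie inside the upstream interval. A match of letters describes the sequence and does not show that a factor was bound there.
Hes6, chr1:91413223-91413342 (-): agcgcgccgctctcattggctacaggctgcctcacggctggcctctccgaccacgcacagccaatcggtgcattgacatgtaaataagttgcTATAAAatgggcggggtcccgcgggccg
Hes1, chr16:30064243-30064362 (+): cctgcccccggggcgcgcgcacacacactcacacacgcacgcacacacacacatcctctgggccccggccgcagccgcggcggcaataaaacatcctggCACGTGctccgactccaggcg

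Beyond the 10 genes, a wider list of 66 genes of the pathway was examined by role, and 28 of them (42.4%) had an interval within 3000 bp of a TSS, beside 22.9% of all protein-coding genes. CpG-rich promoters were those of 46 of the 66 genes, of which 23 (50%) had an interval, beside 39.7% of all genes of that class. Of the 20 others 5 (25%) had one, beside 8.61%. The nearest interval of 19 of these genes lay over a TSS, and their widths ranged from 252 to 1700 bp with a median of 600.5 bp. None of the 6 other ligand genes (*Dll3*, *Dll4*, *Jag2*, *Dlk1*, *Dlk2* and *Dner*) had one, and with *Dll1* and *Jag1* that left *Jag1* as the sole ligand gene listed with an interval. The closest of the others was *Dll3*, at 9398 bp. The remaining receptor gene, *Notch4*, had an interval of 401 bp beginning 121 bp after a TSS.

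Genes for the proteases that cut the receptors had intervals at 6 of 9 (66.7%). The share was 22.9% of all protein-coding genes and 39.7% of those with a CpG-rich promoter. The protease genes with an interval included *Adam10* and *Adam17*, of the cut outside the membrane. They also included *Aph1a*, *Aph1b* and *Psenen*, subunits of the γ-secretase that cuts within it. Each interval of these protease genes lay over a TSS. Corepressor genes had intervals at 9 of 14 (64.3%), among them *Spen*, *Ctbp1*, *Ctbp2*, *Hdac2*, *Tle1*, *Tle2*, *Tle3* and *Kdm5a*. That of *Tle1* was the widest at 1700 bp, and those of *Tle2* and *Tle3* were near the limit of the window, at 2992 and 2787 bp. Coactivator genes had intervals at 3 of 8 (37.5%: *Snw1*, *Ep300* and *Crebbp*) and none at the TSSs of the mastermind genes *Maml1*, *Maml2* and *Maml3*.

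Counts were smaller in the other groups, some of which list few genes. Intervals were at 2 of 4 genes of ligand endocytosis (50%: *Mib1* and *Mib2*) and at 2 of 4 of receptor glycosylation (50%: *Pofut1* and *Lfng*). In receptor trafficking and turnover they were at 2 of 9 (22.2%: *Fbxw7* and *Aak1*), beside 22.9% of all protein-coding genes. Of 11 further genes grouped as targets and feedback, *Bhlhe40*, *Ccnd1* and *Id4* had an interval (27.3%), of 1631, 306 and 451 bp. The authors chose *Bhlhe40* as a Setd1a target partly from these same intervals. Its interval was therefore known before it was listed, and it is part of the count for the wider list. In the same group *Hes2*, *Hes3*, *Hes7*, *Hey2*, *Heyl* and *Nrarp*, with *Myc* and *Sox9*, had none. Of the Hes and Hey genes listed, the 3 with an interval were therefore *Hes1*, *Hes6* and *Hey1*.

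**Figure D5:**
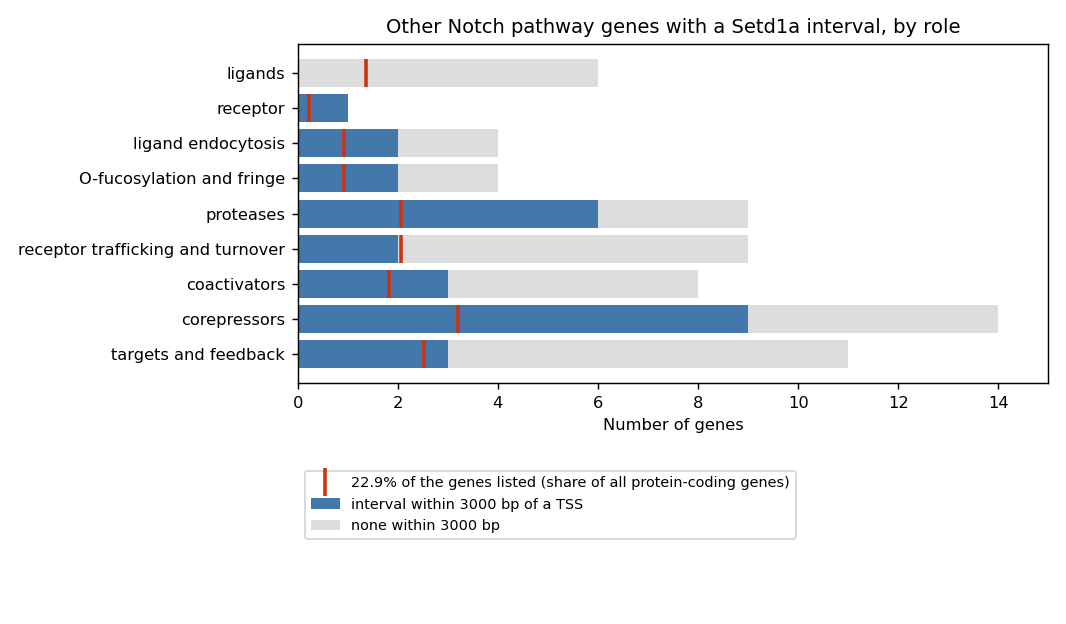
Number of genes in the wider Notch pathway list with (blue) and without (grey) a Setd1a interval within 3000 bp of a TSS, by role, with a red line at 22.9% of the genes listed. Ligands (0 of 6) lie below the line, and receptor trafficking and turnover (2 of 9) just below it. All the other roles lie above it, proteases (6 of 9) and corepressors (9 of 14) among them. The line is the share over all protein-coding genes, and among those with a CpG-rich promoter the share was 39.7%.

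The label of the cells was set against markers in the same list. Promoter intervals were present at 6 of 10 genes of NSCs and radial glia (*Sox2*, *Nes*, *Gfap*, *Vim* and *Id4* among them), but not at *Hopx*, *Sox9*, *Fabp7* or *Prom1*. They were present at 0 of 5 neuronal, 0 of 4 microglial and 0 of 3 endothelial genes and at 2 of 4 genes of the oligodendrocyte lineage (*Olig2* and *Pdgfra*). Beside the share of 22.9% over all protein-coding genes, a count of 0 in lists this short says little. Gene-body intervals were present at *Cx3cr1*, of microglia, and *Pecam1*, of endothelium. An interval gives no level of RNA, so the share of other cells in the cultures was not measured.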

How the data were processed

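CUT & RUN libraries were 2 of Setd1a and 1 of IgG. Per the submitters' processing notes and the study's methods, reads were demultiplexed with bcl2fastq 2.17.1.14, trimmed with Trimmomatic 0.32, mapped uniquely to mm10 with Bowtie2 2.1.0 and filtered for mapping quality with SAMtools 0.1.18. Peaks were then called in each Setd1a replicate with MACS2 2.2.8 at default settings, and those shared by both were kept. The values deposited by the authors are other than counts: the start and end of each interval in bp. Whether IgG served as the control in this step, how shared intervals were joined and whether starts count from 0 or 1 are not given in the sources used here. Starts were read as 1-based, which could shift an edge by 1 bp. Unique mapping leaves out repeats, and MACS2 widths depend on fragment length and depth, which is unknown.

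Intervals were placed on GENCODE M21 with Python 3.11.15, pandas 2.3.3, numpy 2.4.6 and pysam 0.24.0, and drawn with matplotlib 3.10.9. All 6952 intervals on assembled chromosomes ended within GRCm38 lengths. Distance ran from the nearer edge of an interval to a TSS. Positions were counted from the 5′ end of the coding transcript with the best support level and, among equals, the longest. The observed to expected CpG ratio was the number of CpGs times the length, over the product of C and G counts. All 10 genes were described, and a wider list was given by role, with genes that had an interval named. Some genes of these lists and 1 sequence are not reported here. The genes and lists were chosen with earlier results of these data known. Placement and motif search were tested on simulated data, where 1200 of 1200 intervals were classed as placed and 600 of 600 planted motifs were found. Alternatives changed the window, the TSS set, the assignment of intervals, their minimum width, merging, the gene span and the motif window.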

Additional observations from a re-analysis of the deposited data

How the results depend on the processing

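The alternatives numbered 46, and 42 gave a count within 1.5 times of the reported one. Across 10 settings of the window, TSS set, assignment, minimum width, merging and measure of distance, the same 7 genes had an interval near a TSS in each, and *Notch3*, *Hes5* and *Dll1* had one in 0. The intervals at the genes numbered 12 to 15 and the wider list 22 to 28. With the span of coding transcripts alone, 6 genes in place of 7 had an interval in the gene body, and *Hes6* was the one lost. Promoters with an RBPJ core numbered 9 in the wider window and 3 for the longer form, in place of 5. In 300 bp centred on the interval nearest the TSS, 2 of 7 genes with one held the core, beside 24.1% of 6952 intervals. Promoters with an E-box numbered 1 in the wider window, in place of 0. These windows differ in length or place, or the motif in length. No paired analysis was possible because the replicates are combined in 1 list, and for the same reason neither could be left out. Depth per library is unknown, so weak intervals may be missing.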
